A study of Mus musculus with 12 samples.

Results

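Acetylation of histone H3 on lysine 9 (H3K9ac), found at promoters and enhancers in use, was read at 10 mouse genes of the growth hormone and insulin-like growth factor (IGF) axis in liver. The genes were chosen by their role, as Ghr, Igf1, Igfals, Igfbp1, Igfbp2, Igfbp4, Socs2, Cish, Stat5b and Bcl6. They are 10 of the 21911 protein-coding genes of the GENCODE M21 annotation (mm10). A peak belonged to a gene when it overlapped the gene body or the 5 kb either side of the annotated gene start, a stretch called the gene window here. Across 6 peak lists, 335 peaks fell in the 10 windows. Merged over the lists, they formed 76 regions of 27334 in the whole genome.

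All 6 lists came from formaldehyde-fixed liver of adult mice that carried no stated transgene, deletion or treatment. They were 2 libraries of C57BL/6J (B6, the strain of the reference genome) and 2 of MSM/Ms (MSM, inbred from wild mice of Japan). The others were 1 of F1 BM and 1 of F1 MB, hybrids from the reciprocal crosses of B6 and MSM. Where a strain has a pair of values, that of replicate 1 comes first. Per the study, the libraries of each parental strain came from 2 different mice, whose sex is not given in the sources used here. The F1 values have no replicate. The design sets H3K9ac in one strain against the other and then in the reciprocal hybrids.

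In liver, growth hormone binds its receptor GHR and, through the kinase JAK2, activates the transcription factor STAT5B. STAT5B binds gamma-activated sites, short palindromes that BCL6, a repressor, can also bind. Liver is the main source of circulating IGF1, which travels in a complex with an IGF-binding protein and the acid-labile subunit encoded by Igfals. SOCS2 and CISH are induced by STAT5 and dampen the receptor's signal.

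The lists differed in length, which touches every value below. B6 replicate 1 held 22968 peaks over 16.02 Mb and B6 replicate 2 held 11619 over 6.28 Mb. The MSM lists held 17310 and 17584 peaks, F1 BM 20173 and F1 MB 13235. The length under peaks was higher in B6 replicate 1 than in B6 replicate 2 at 10 of 10 genes, and at 11052 of the 11446 protein-coding genes with a peak in a parental library. It was also higher in F1 BM than in F1 MB at 10 of 10. The median fold enrichment of all peaks differed between the lists too. It was 5.23 and 4.49 in B6, 4.93 and 4.996 in MSM, 3.38 in F1 BM and 4.57 in F1 MB. Raw folds of different lists are therefore not on a common scale. A lower fold in F1 BM need not mean less acetylation. The lists hold no read counts, so depth was not used, and a region missing from a list cannot be told apart from one too weak for that library. Hepatocyte genes were marked throughout, with a peak in the windows of 8 of 8 markers in all 6 lists. None of 5 Kupffer cell and 5 lymphocyte markers had a peak. Of 5 stellate cell markers Dcn had one, in F1 BM only, and of 4 cholangiocyte markers Sox9 had one, in B6 replicate 1 only. Of 5 liver endothelial markers, 4 and 0 had a peak in the B6 lists, 3 and 4 in the MSM lists, 5 in F1 BM and 1 in F1 MB. Their part in the results was not tested. Xist, the X inactivation transcript, had a peak at its start in 6 of 6 lists, and 4 Y-linked genes (Kdm5d, Eif2s3y, Uty and Ddx3y) had none in any.

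All 10 genes had an H3K9ac peak in all 6 lists, as did 28.5% of the 21911 protein-coding genes. The median length under peaks over the 10 genes was 4603 bp and 2313 bp in the B6 libraries, 2438 bp and 3086 bp in the MSM libraries, 4045 bp in F1 BM and 2033 bp in F1 MB. Over the 11446 genes with a parental peak it was 1089, 345, 599, 613, 681 and 457 bp in the same order. Of the 76 regions, 18 had a peak in all 6 lists (23.7%), against 27.9% of the 22816 regions in all gene windows. These 18 had a median width of 1997 bp. Another 18 were listed in 1 library only, with a median width of 332 bp (the background is 28.5%), and 9 of these were from B6 replicate 1.

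**Figure D1:**
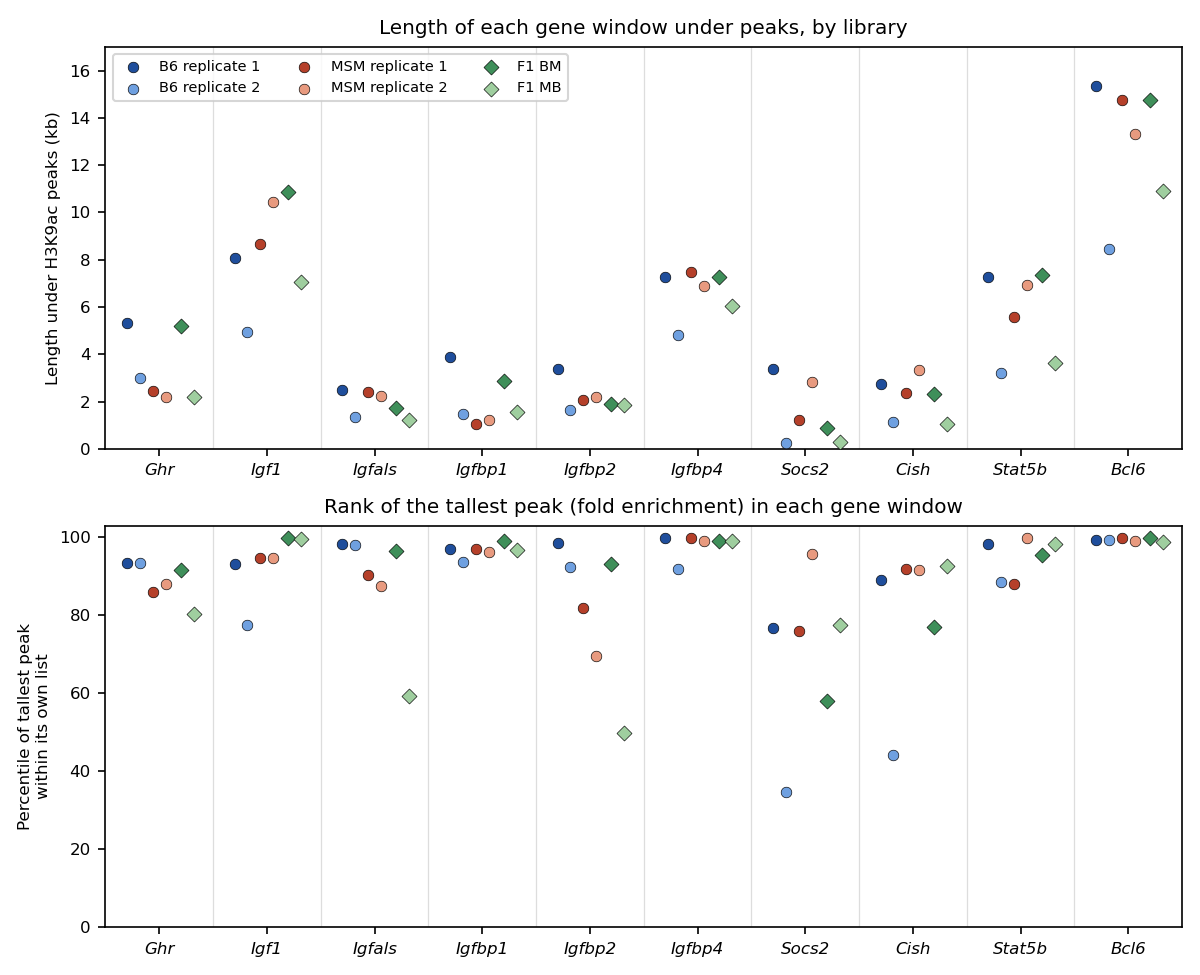
Upper panel, length under H3K9ac peaks (kb) in the window of each gene, with 1 point per library (circles for the parental strains, diamonds for the F1 hybrids). Lower panel, percentile of the tallest peak of each gene among all peaks of the same list. In the upper panel both B6 points lie above both MSM points at Ghr and Igfbp1 and below them at Igf1, and the darker B6 point lies above the lighter at every gene.

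Set side by side, few of the 10 genes separated the strains by length under peaks. Both B6 libraries had more length under peaks than both MSM libraries at 2 of 10 genes, Ghr and Igfbp1, against 11.6% of all genes tested. Both MSM libraries had more at 1 of 10, Igf1, against 4.97%. These shares lie near the background and are no result about the axis as a whole. With 2 libraries a strain, the exact two-sided permutation test cannot go below p = 0.333, the value at each of these 3 genes. The counts also rest on the unequal B6 lists. Without B6 replicate 1, MSM was higher at 8 of 10 genes (61.2% of all genes), and without B6 replicate 2, B6 was higher at 7 of 10 (84.2%). Leaving out MSM replicate 1 or MSM replicate 2 put MSM higher at 2 of 10 (10.7% or 10.2%).

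Ghr encodes the growth hormone receptor (chr15:3317760-3583492, minus strand). Its peaks covered 5320 and 2979 bp in B6, 2465 and 2187 bp in MSM, 5211 bp in F1 BM and 2206 bp in F1 MB. Both B6 libraries lay above both MSM libraries, and F1 MB lay beside MSM. With peaks of a −log10 q of at least 5 the strains overlapped, at 4989 and 2453 bp in B6 against 2465 and 1944 bp. B6 averaged 4150 ± 1655 bp and MSM 2326 ± 197 bp (SD, n = 2 each). The MSM minus B6 difference of -1823.5 bp exceeded the pooled SD of 1179 bp (exact permutation p = 0.333). The tallest peak also ranked higher in B6, at percentiles 93.4 and 93.3 of its list against 86.1 and 87.9 in MSM. With every list cut to the same covered length the groups overlapped, at 67.5 and 93.3 in B6 and 70.6 and 74.2 in MSM, as they did on raw fold.

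The Ghr peaks were at the promoter and deep inside the gene. The promoter region at chr15:3581266-3583212, in an exon with untranslated sequence, was listed in all 6 libraries. Its fold enrichment was 11.8 and 7.86 in B6, 7.85 and 8.42 in MSM, 5.96 in F1 BM and 6.39 in F1 MB, so the strains overlapped there. Over 10 kb into the gene, a boundary set after the peaks were seen, 8 regions were listed in all. B6 replicate 1 had 6 of them and B6 replicate 2 had 4. Each MSM library had 1, F1 BM had 7 and F1 MB had 2. Of 2120 genes with such a region in a parental library, 5.14% had more in both B6 libraries than in both MSM libraries and 7.45% the reverse. Ghr was singled out here with its values known. The region common to all 6 lies in an intron 94442 bp from the gene start, with folds of 5.67 and 4.48 in B6 and 3.91 and 3.21 in MSM.

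Igf1 encodes IGF1, the secreted effector of the axis (chr10:87858265-87937042, plus strand). Its peaks covered 8094 and 4939 bp in B6, 8682 and 10444 bp in MSM, 10869 bp in F1 BM and 7072 bp in F1 MB. Both MSM libraries lay above both B6 libraries, and F1 BM lay above all 4 parental libraries. B6 averaged 6517 ± 2231 bp and MSM 9563 ± 1246 bp (SD, n = 2 each). They differed by 3047 bp against a pooled SD of 1807 bp (exact permutation p = 0.333). In every library the length at Igf1 lay above the 99.2 percentile of all genes tested.

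Most of this acetylation was a single block over the alternative Igf1 promoters. Joining peaks at most 500 bp apart gave a start domain of 6003 and 5006 bp in B6, 5993 and 5886 bp in MSM, 6136 bp in F1 BM and 5842 bp in F1 MB. This width overlapped between the strains, and in each library the domain spanned all 8 annotated coding starts. The remaining 13 regions lay over 10 kb into the gene. B6 replicate 1 had 6 of them, B6 replicate 2 had 0, the MSM libraries had 6 and 10, F1 BM had 10 and F1 MB had 4. The tallest Igf1 peak stood at percentile 93.1 and 77.5 in B6 and 94.8 and 94.6 in MSM. It stood at 99.7 in F1 BM and 99.5 in F1 MB, above all 4 parental libraries in both hybrids. As raw fold the values were 11.6 and 5.85 in B6, 10.05 and 10.5 in MSM, 11.4 in F1 BM and 12.98 in F1 MB. On that scale the strains overlapped, and F1 MB lay above all 4 parental libraries while F1 BM lay below B6 replicate 1. The median fold of all peaks was 3.38 in the F1 BM list and 5.23 in that of B6 replicate 1.

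Igfals encodes the acid-labile subunit that keeps IGF1 in circulation (chr17:24865997-24882010, plus strand). The annotated gene start belongs to a non-coding transcript and had no peak within 500 bp, so the coding start 12261 bp further on is used here. Peaks joined there spanned 2489 and 1656 bp in B6, 2790 and 2724 bp in MSM, 1963 bp in F1 BM and 450 bp in F1 MB. The F1 MB domain (chr17:24877648-24878097) ended before the coding start, and the other F1 MB peak was not joined to it. By this joined width the MSM libraries were wider than both B6 libraries. The length under peaks overlapped between the strains, at 2489 and 1360 bp in B6 and 2410 and 2225 bp in MSM. In the hybrids this length was 1733 bp in F1 BM and 1229 bp in F1 MB. The height went the other way from the joined width. The tallest peak had a fold of 15.7 and 9.75 in B6, 8.69 and 8.30 in MSM, 7.43 in F1 BM and 4.96 in the F1 MB library. Its percentile was 98.3 and 98.1 in B6 and 90.4 and 87.4 in MSM, and both B6 libraries were above both MSM libraries on either scale.

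The IGF-binding proteins, which hold IGFs in blood and tissue, differed in pattern. Igfbp1, which encodes a binding protein that insulin represses in liver, had 3886 and 1475 bp under peaks in B6, 1058 and 1206 bp in MSM, 2878 bp in F1 BM and 1581 bp in F1 MB (chr11:7197782-7202546, plus strand). Both B6 libraries were above both MSM libraries. B6 averaged 2681 ± 1705 bp and MSM 1132 ± 105 bp (SD, n = 2 each), with a pooled SD of 1208 bp and an exact permutation p of 0.333. Its start domain was wider in B6 too, at 2991 and 1669 bp against 1269 and 1312 bp, with 3209 bp in F1 BM and 1806 bp in F1 MB. It was the only 1 of 8 genes with a start domain in all 4 parental libraries to be wider in B6, against 16.7% of genes. No gene of the 8 was wider in MSM at the annotated start, against 5.42%, and at the start of the principal isoform 1 was (Igfals). Without B6 replicate 2 the count for B6 was 5 of 9 (79.7% of genes), and without B6 replicate 1 that for MSM was 7 of 8 (61.8%). Without MSM replicate 1 or MSM replicate 2 the count for MSM was 1 or 2 of 8 (11.9% or 11.2%).

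Height did not separate the strains at Igfbp1, by fold or by percentile of the full lists. Its tallest peak had a fold of 14.0 and 7.93 in B6, 11.5 and 11.4 in MSM, 9.71 in F1 BM and 9.88 in F1 MB. With each list cut to its best 11619 peaks, its percentile was higher in both MSM libraries. It was then 93.8 and 93.6 in B6 and 95.6 and 94.3 in MSM. At Igfbp2 (chr1:72824503-72852474, plus strand) it was the height that differed. The tallest Igfbp2 peak had a fold of 15.996 and 7.68 in B6, 7.23 and 6.14 in MSM, 6.32 in F1 BM and 4.57 in F1 MB. Its percentile was 98.5 and 92.5 in B6 and 81.9 and 69.5 in MSM, so both B6 libraries were above both MSM libraries. Its covered lengths overlapped between the strains, at 3380 and 1647 bp in B6 and 2053 and 2215 bp in MSM.

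**Figure D2:**
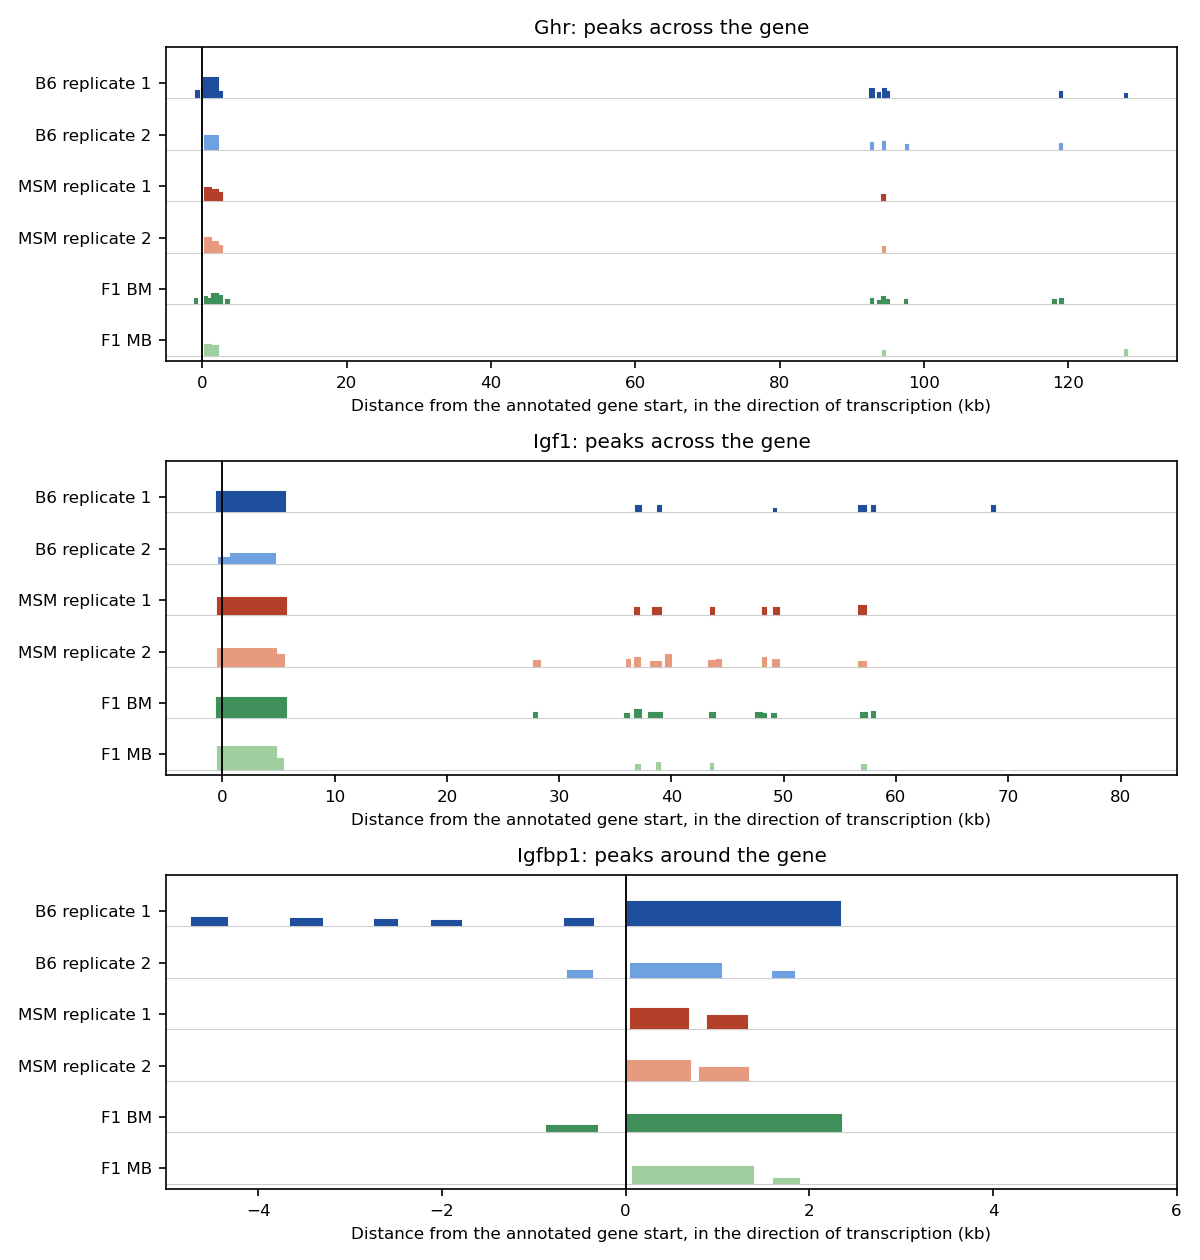
H3K9ac peaks at Ghr, Igf1 and Igfbp1 by distance from the annotated gene start (kb, direction of transcription), with 1 row per library. Bar width is the peak's extent and bar height is proportional to its fold enrichment on 1 scale. Ghr has peaks deep in the gene mainly in the B6 and F1 BM rows, Igf1 has them in every row but B6 replicate 2, and Igfbp1 has an upstream peak in the B6 and F1 BM rows.

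Igfbp4 (chr11:99041244-99054392, plus strand) had a broad domain in all livers. Its peaks covered 7279 and 4822 bp in B6, 7480 and 6873 bp in MSM, 7251 bp in F1 BM and 6043 bp in F1 MB, and the strains overlapped. It had 4 regions common to the 6 libraries. The first, at the gene start (chr11:99040354-99043384), had a fold of 19.6 and 7.55 in B6 and 14.8 and 13.7 in MSM. The last (chr11:99045854-99048875) had 9.83 and 6.40 in B6 and 16.3 and 14.7 in MSM. Its MSM peaks lay in an intron, with summits 5074 and 5081 bp from the gene start, before the later coding start at 99047311. The tallest peak was therefore at the gene start in both B6 libraries and in this intron in both MSM libraries. In both hybrids the region at the gene start was the taller, at 9.53 against 8.31 in F1 BM and 12.1 against 6.90 in F1 MB. How often such a switch occurs over all genes was not tested.

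At the feedback inhibitors Socs2 and Cish the length under peaks overlapped between the strains. Socs2 (chr10:95385362-95417180, minus strand) had 3396 and 245 bp under peaks in B6, 1235 and 2836 bp in MSM, 872 bp in F1 BM and 309 bp in F1 MB. Each strain had 1 high and 1 low library, and the difference of 215 bp was far below the pooled SD of 1767 bp. Socs2 was the only 1 of the 10 genes with no region common to the 6 lists. Cish (chr9:107296026-107302784, plus strand) had 2744 and 1126 bp in B6, 2361 and 3335 bp in MSM, 2343 bp in F1 BM and 1058 bp in F1 MB. Its lengths overlapped between strains. The tallest Cish peak stood at percentile 89.1 and 44.1 in B6 and 91.9 and 91.5 in MSM. As raw fold it was 10.2 and 4.29 in B6 and 9.08 and 9.37 in MSM, and the strains overlapped.

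The transcription factors had wide marks that did not separate the strains. Stat5b, the main STAT5 of liver (chr11:100780731-100850724, minus strand), had 7284 and 3213 bp in B6, 5598 and 6928 bp in MSM, 7360 bp in F1 BM and 3646 bp in F1 MB. Its 17 regions were the most of any of the 10 genes, and 2 were common to all lists, one at each coding start. At the gene start the fold was 15.5 and 6.95 in B6, 8.22 and 18.4 in MSM, 4.71 in F1 BM and 11.2 in F1 MB. At the internal start (chr11:100821144-100822576) it was 8.92 and 4.37 in B6, 5.14 and 5.68 in MSM, 7.01 in F1 BM and 5.60 in F1 MB. In F1 BM the internal start was the taller of the pair, and in the other libraries the gene start was.

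Bcl6 (chr16:23965052-23988852, minus strand) had the greatest length under peaks of the 10 genes in every library. It was 15359 and 8473 bp in B6, 14765 and 13336 bp in MSM, 14773 bp in F1 BM and 10927 bp in F1 MB, above the 99.9 percentile of all genes in each. The strains overlapped. The start domain was 15874 and 5815 bp in B6 and 16585 and 10607 bp in MSM. Of its 9 regions, 5 were common to all 6 lists.

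By percentile of the tallest peak, both B6 libraries were above both MSM libraries at 3 of 10 genes (Ghr, Igfals and Igfbp2), against 18.4% of 6706 genes. Both MSM libraries were above both B6 libraries at 2 of 10 (Igf1 and Cish), against 14.4%. On raw fold the counts were 2 (Igfals and Igfbp2, with 10.8% of genes) and 0 (with 8.59%). Without B6 replicate 1, MSM replicate 1 or MSM replicate 2 the MSM count was 5, 4 or 5 (48.6%, 28.6% or 28.3% of genes). The B6 count was 3 without B6 replicate 2 (50.9%), and 4 without MSM replicate 1 (33.6%) or MSM replicate 2 (32.5%).

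Of the 76 regions, 3 were listed in both B6 libraries and neither MSM library (2.86% of regions in all gene windows), and 4 in both MSM libraries and neither B6 library (2.49%). All 7 had folds of at most 5.68, against a median highest fold of 12.4 in the regions common to all lists. Their median width was 513 bp for the B6 regions and 403 bp for the MSM regions. Without B6 replicate 2 the B6 count was 17 (25.9% of regions in all gene windows), and without MSM replicate 2 it was 5 (4.52%). Without B6 replicate 1 the MSM count was 17 (15%), without MSM replicate 1 it was 12 (6.43%), and without MSM replicate 2 it was 6 (5.91%). The B6 regions were a pair in Ghr introns and 1 upstream of Igfbp1. The Ghr region 92834 bp into the gene (chr15:3490402-3490914) had a fold of 5.68 and 3.72 in B6 and 3.02 in F1 BM. The Ghr region 119037 bp into the gene (chr15:3464206-3464703) had 3.99 and 3.45 in B6 and 2.93 in F1 BM. The Igfbp1 region, centred 583 bp before the gene start (chr11:7196922-7197475), had 4.01 and 4.06 in B6 and 3.92 in F1 BM.

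The MSM regions were a pair in Igf1 introns, 1 in an Igfals intron and 1 in a Bcl6 exon with untranslated sequence. The Igf1 region 43608 bp into the gene (chr10:87901619-87902127) had a fold of 4.42 and 3.66 in MSM, 2.87 in F1 BM and 3.15 in the F1 MB library. The Igf1 region at 48294 bp (chr10:87906411-87906707) had 4.35 and 5.12 in MSM and 2.58 in F1 BM. The Igfals region (chr17:24877086-24877382) had 4.10 and 4.38, the Bcl6 region (chr16:23978165-23978745) had 3.93 and 3.55, and neither was listed in a hybrid. F1 BM thus had a peak in 3 of 3 B6 regions and 2 of 4 MSM regions, and F1 MB in 0 of 3 and 1 of 4. Over all gene windows F1 BM had a peak in 62.9% of 653 B6 regions and 61.4% of 567 MSM regions, and F1 MB in 28.2% and 21.9%.

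**Figure D3:**
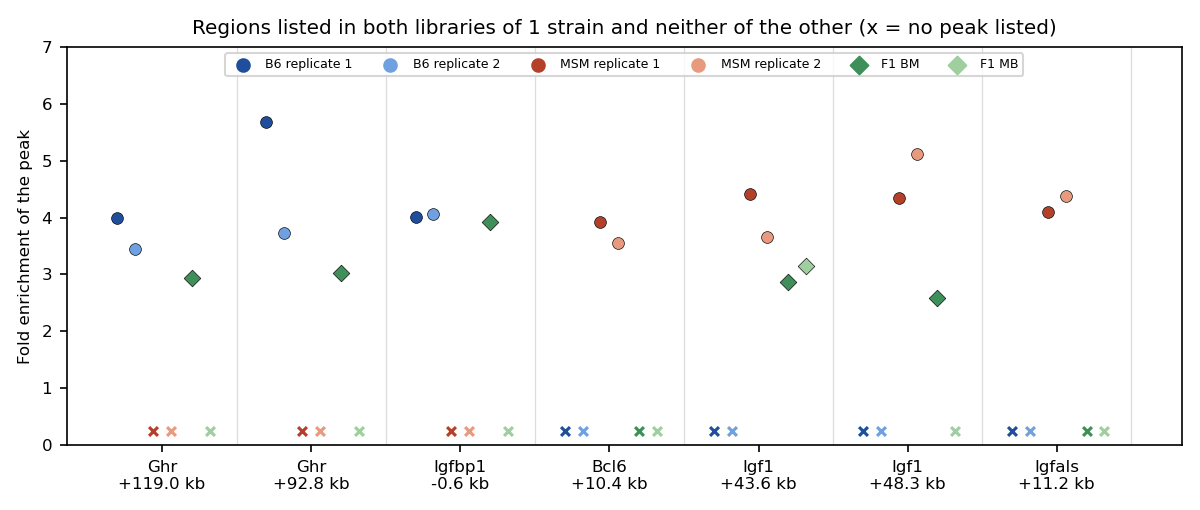
Fold enrichment of the peak in each library at the 7 regions listed in both libraries of 1 strain and neither of the other, named by gene and distance of the region's centre from the gene start. A cross near the axis marks a library with no peak listed. F1 BM has a peak in the 3 B6 regions and F1 MB in none of them.

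The sequences at the summits of 4 of these regions are shown because they are where the lists of the strains part. They are 201 bases of the mm10 reference on the gene's strand, and capitals mark the summit of the highest peak with 5 bases either side. The reference is the B6 genome, so these are not MSM sequences. The windows are chr15:3490611-3490811 (minus strand), chr11:7197221-7197421, chr10:87901842-87902042 and chr10:87906452-87906652 (plus strand).
Ghr, B6 region: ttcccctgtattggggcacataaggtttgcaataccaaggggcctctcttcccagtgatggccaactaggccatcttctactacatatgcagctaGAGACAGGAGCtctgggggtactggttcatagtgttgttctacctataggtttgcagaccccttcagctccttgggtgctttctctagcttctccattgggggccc
Igfbp1, B6 region: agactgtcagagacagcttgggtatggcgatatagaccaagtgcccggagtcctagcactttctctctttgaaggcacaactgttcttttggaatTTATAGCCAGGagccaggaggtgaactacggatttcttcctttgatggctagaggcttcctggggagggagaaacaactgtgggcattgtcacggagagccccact
Igf1, first MSM region: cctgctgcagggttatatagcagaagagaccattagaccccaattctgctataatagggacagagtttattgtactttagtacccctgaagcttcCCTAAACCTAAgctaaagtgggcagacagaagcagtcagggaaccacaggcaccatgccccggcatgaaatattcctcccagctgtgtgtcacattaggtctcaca
Igf1, second MSM region: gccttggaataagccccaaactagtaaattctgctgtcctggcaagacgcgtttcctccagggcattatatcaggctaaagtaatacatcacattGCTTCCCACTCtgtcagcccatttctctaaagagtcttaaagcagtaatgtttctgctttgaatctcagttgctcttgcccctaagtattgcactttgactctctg
None of the 3 B6 regions and none of the 4 MSM regions held a whole gamma-activated site, searched as TTCNNNGAA, within 100 bp of the summit. Further out, the Ghr region at 119037 bp held 1 (chr15:3464580-3464588), which was under a peak in both B6 libraries and F1 BM, and the other 6 regions held none. This motif is its own reverse complement, so both strands are read at once. Of all 27334 regions, 5.39% held one there, as did 3 of the 76 regions of the 10 genes.

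From 250 bp before to 50 bp after the annotated gene start, only Bcl6 of the 10 genes held the motif, against 8.37% of 21911 genes. With the same window at any annotated coding start, 4 of the 10 genes held it (Igfals, Socs2, Cish and Bcl6), against 14.0% of 21826 genes. The number of coding starts differs between genes, with 8 at Igf1 and 1 at Bcl6. In Cish and Socs2 the sites came in pairs. First bases lay 51 and 40 bp before a Cish coding start and 66 and 55 bp before a Socs2 coding start, a spacing of 11 bp in both. Only 3 of the 21826 genes had a pair at that spacing in such a window, namely Cish, Socs2 and Rasl10b. The spacing was taken from the Cish and Socs2 sequences after they were seen. Any 2 sites within 30 bases were found in 16 genes. The sites are printed because the peak lists bear on where they lie. Each run is 30 bases of mm10 on the gene's strand, with the sites in capitals, at chr9:107296654-107296683, chr9:107296762-107296791, chr10:95416899-95416928 and chr17:24878163-24878192.
Cish, first pair: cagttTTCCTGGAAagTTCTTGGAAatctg
Cish, second pair: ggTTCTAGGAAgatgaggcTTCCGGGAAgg
Socs2, pair: gcggaTTCCTGGAAagTTCCTGGAAagcgg
Igfals, single site: ctgccaggtgTTCCTAGAAgaggccctggg

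At Cish, Socs2 and Igfals these sites were seldom under a listed peak. The Cish sites are in annotated untranslated sequence, and those of Socs2 and Igfals are in introns of longer transcripts. No list had a peak over any of the 4 Cish sites or the 2 Socs2 sites. At Cish, B6 replicate 1, both MSM libraries and F1 MB had a peak on each side, with a gap of 357, 352, 359 and 407 bp, and the other 2 lists had the downstream peak only. At Socs2 the pair lay in a gap of 152 bp in B6 replicate 1 and of 211 bp in MSM replicate 2, and in the other 4 lists no peaks lay so close on both sides. The Igfals site, 85 bp before the coding start, lay in a gap of 169 bp in B6 replicate 2, 131 and 204 bp in MSM and 230 bp in F1 BM. It was under a peak in B6 replicate 1 only. In the library lists, 1.66% to 3.47% of the 3369 sites near all coding starts lay in a gap of at most 500 bp, and 5.31% to 14.0% lay under a peak. Of those in either place, 19.9% to 29.5% were in a gap. A match is a description of letters, not of a bound factor.

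At Bcl6 most sites were under listed peaks. Its regions held 14 of the 34 sites found under the 76 regions, a density of 0.806 per kb against 0.288 per kb over all 27334 regions. The density at the other genes ran from 0 at Socs2 and 0.197 per kb at Stat5b to 0.856 per kb at Cish. Of the 14 Bcl6 sites, 9 were under a peak in at least 5 lists. The sites 255 and 229 bp after the coding start lay in a gap in 4 and 3 lists. One intronic region, centred 7403 bp into the gene (chr16:23979682-23983215), held 3 sites within 100 bp of its highest summit. The fold was 9.60 and 4.54 in B6, 8.60 and 7.44 in MSM, 4.30 in F1 BM and 4.99 in the F1 MB library, and all 3 sites were under a peak in all 6 lists. The summit window, chr16:23981357-23981557 on the minus strand, is shown with the sites in capitals.
Bcl6, intronic summit: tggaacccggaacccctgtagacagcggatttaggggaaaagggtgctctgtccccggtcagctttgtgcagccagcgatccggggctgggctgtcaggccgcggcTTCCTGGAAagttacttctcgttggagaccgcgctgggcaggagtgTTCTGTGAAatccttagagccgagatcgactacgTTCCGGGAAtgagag

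**Figure D4:**
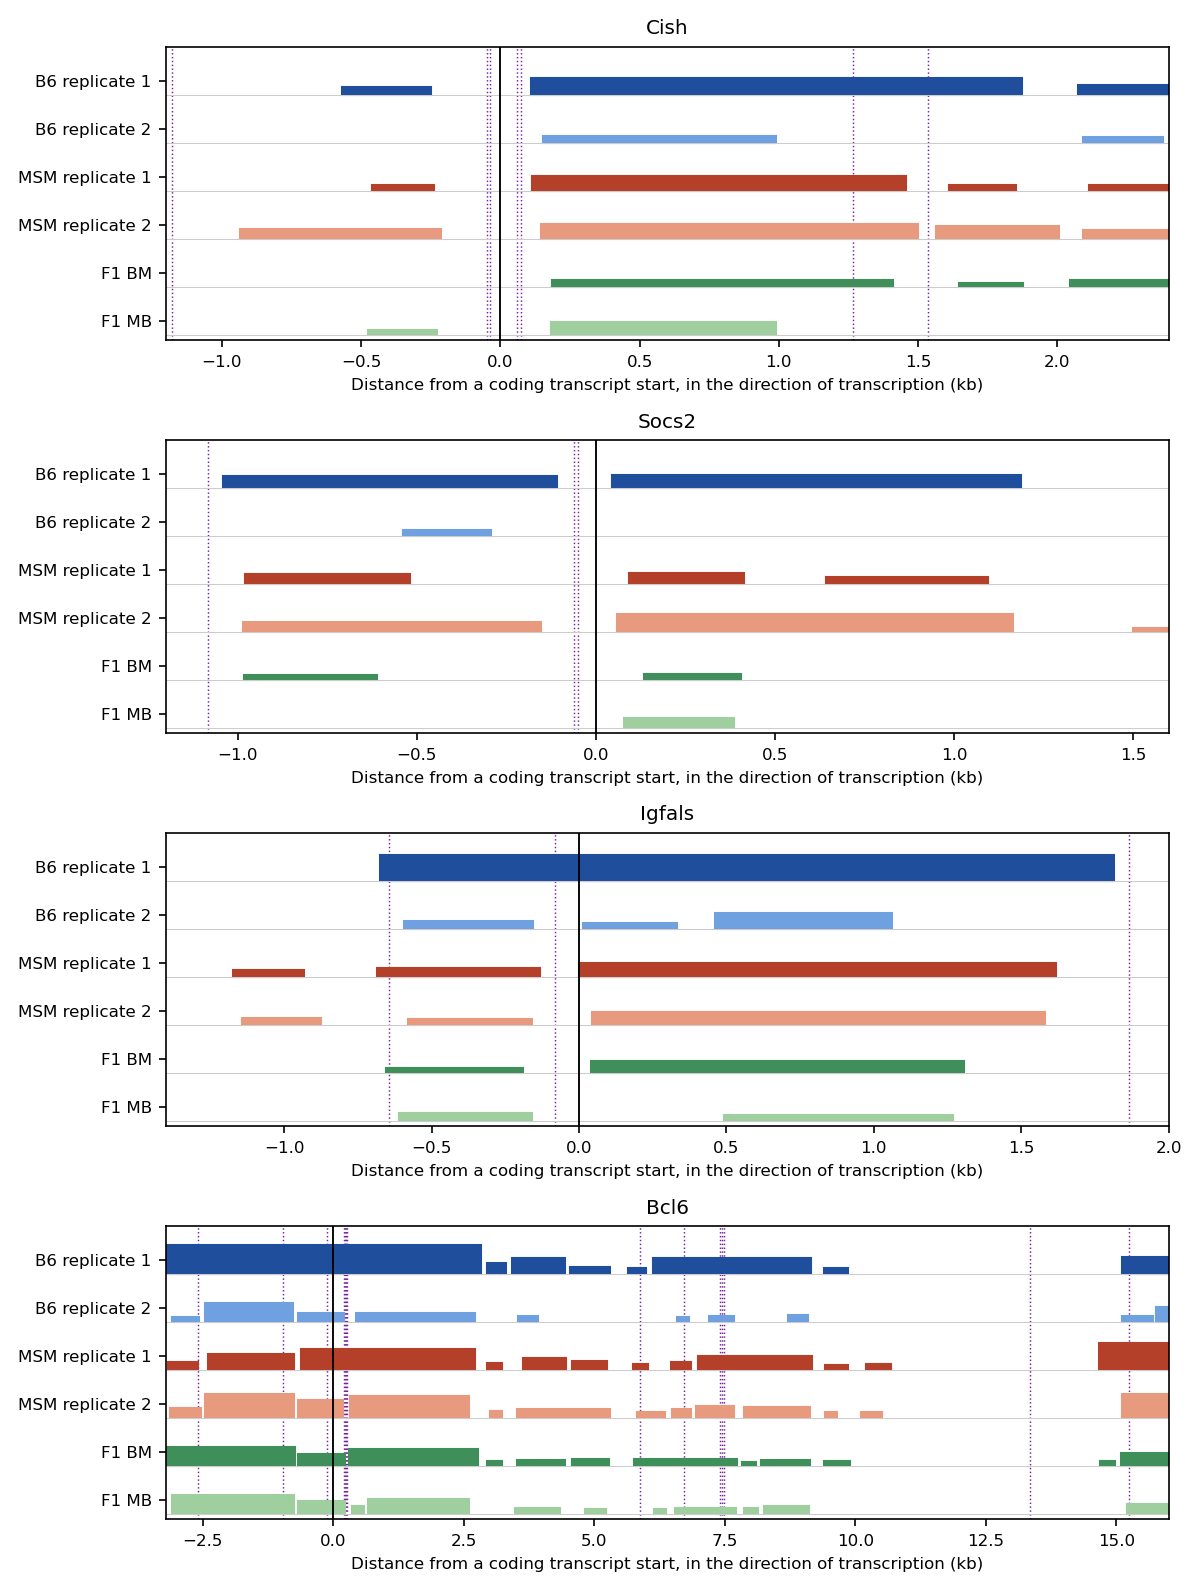
H3K9ac peaks (bars, height proportional to fold enrichment) and TTCNNNGAA sites (dotted lines) by distance from a coding start (kb, solid line) at Cish, Socs2, Igfals and Bcl6, with 1 row per library. The paired sites of Cish and Socs2 lie in stretches without a peak in every row, and most sites of Bcl6 cross bars.

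Of 29 other genes of growth hormone and IGF signalling, 21 had a peak in a parental library and 14 had one in all 6 lists. Both B6 libraries were higher at 2 of the 21 (Socs3 and Shc1, with 11.6% of all genes tested) and both MSM libraries at 0 (with 4.97%), near the background. Socs3, another feedback inhibitor, had 1448 and 664 bp in B6 and 648 and 444 bp in MSM. Shc1, an adaptor of receptor kinases, had 1658 and 1585 bp in B6 and 1277 and 1021 bp in MSM. In all 6 lists 8 had no peak, namely Igf2, Igfbp3, Igfbp5, Igfbp6, Pappa, Pappa2, Stc2 and Htra1. Igfbp3, the neighbour of Igfbp1 and the main IGF carrier in blood, thus had no listed peak beside an Igfbp1 listed in every library.

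Genes whose liver expression is known to follow the sex-specific pattern of growth hormone were read as well. Of 9 male-biased genes in the annotation, 6 had a parental peak. Among these MSM was higher at 3 (Cyp7b1, Cyp2d9 and Susd4) and B6 at 1 (Nudt7). Susd4, singled out here with its values known, had 0 and 0 bp under peaks in B6 and 2723 and 2865 bp in MSM. It had 1316 bp in F1 BM and 522 bp in F1 MB. The male-biased genes differed in both directions, and the background for covered length is the 11.6% and 4.97% given above. The female-biased genes are not reported here, so these counts cannot be read as particular to male-biased genes. Several of these genes have near-identical copies, where reads can be placed at the wrong one, so their values are uncertain.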

How the data were processed

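H3K9ac ChIP-seq was done on 6 adult mouse livers and the 6 input libraries were not used here. The submitters' processing notes name Trim Galore, HISAT2, SAMtools and MACS2 and the build mm10 (GRCm38), while the study's methods name Bowtie 2 for mapping with a long maximal insert. The caller's threshold and its control are not given in the sources used here. All reads were mapped to the B6 sequence, so MSM reads could be lost where the strains differ, and this was not tested. The authors deposited 1 peak list per library, in which the fold enrichment is a linear ratio and the significance is the −log10 of a p-value and of a q-value. A score in the deposited lists was not used. The lowest −log10 q was 1.30 to 1.35.

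Computation used numpy 2.4.6 and scipy 1.17.1 under Python 3.11.15, and matplotlib 3.10.9 drew the figures. The length under peaks, the start domain (peaks joined within 500 bp, nearest the gene start and within 500 bp of it) and the tallest peak were computed for each gene window. A gene was called when the 2 libraries of a strain both exceeded the 2 of the other, and single values were tested by an exact two-sided permutation test over 6 assignments. Regions were merged peaks, listed in a library on an overlap of at least 1 bp. No count model was possible, and the precision of a peak list depends on a depth that was not used. The 10 genes and all gene lists were chosen with earlier results of these data known, and the placement of sites relative to peaks was examined after the sites were seen. All 10 genes were named by rule, with the pathway genes whose groups did not overlap or that had no peak. The male-biased genes were named with their values known. Scripts were tested on simulated peak lists. Peak positions were checked against 21 chromosomes of GRCm38.p6. The alternatives were other windows, thresholds, joining distances, isoforms and scales, lists cut to equal length, each parental library left out, and pairing by replicate number. The count over the female-biased genes is not reported here.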

Additional observations from a re-analysis of the deposited data

How the results depend on the processing

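Leaving out a library or pairing by number cannot undo groups that do not overlap, so neither bears on those genes. Of 211 recomputed differences of the strain means at genes whose groups overlapped, 37 turned direction, 14 of them without B6 replicate 2. By covered length, Igfals, Igfbp4, Socs2, Stat5b and Bcl6 turned to B6 without B6 replicate 2, Igfbp2 to MSM without B6 replicate 1, and Socs2 to B6 without MSM replicate 2. Socs2 and Stat5b also turned to B6 with a −log10 q of at least 5, and Igfals with the same covered length. The longer covered length of Igf1 in MSM and of Igfbp1 in B6 kept non-overlapping groups in 3 of 3 and 4 of 4 of the other alternatives that changed the values, and that of Ghr in B6 in 2 of 3, the exception being peaks with a −log10 q of at least 5, where the B6 count was 1 (11% of genes). With each list cut to its best 11619 peaks, the MSM count by tallest peak was 4 (17%), and the counts by covered length stayed at 2 and 1 while their shares of all genes were 19.3% for B6 and 8.87% for MSM. With the same covered length, the MSM count by covered length was 2 (17.5%), the B6 count by start domain 2 (25.2%), and the B6 regions numbered 0. With the start of the principal isoform, the MSM count by start domain was 1 (5.32%), and Igf1 had no such transcript and no value. With the fold as given, the MSM count by tallest peak was 0 (8.59%). With a replicate block (B6 and MSM libraries paired by number), the MSM counts were 2 by covered length, 2 by start domain and 4 by tallest peak, against 8.07%, 10% and 22.5% of all genes. The numbers do not mark a shared animal, and the correlation of the replicate differences of the strains over 11446 genes was 0.083. Leaving out 1 parental library gave, by covered length, 2 to 7 genes for B6 and 1 to 8 for MSM. By start domain it gave 1 to 5 and 0 to 7, and by tallest peak 3 to 4 and 2 to 5. It gave 3 to 17 B6 regions and 4 to 17 MSM regions. The cause of these changes was not tested. No other count over the 10 genes or their regions changed by over 1.5 times.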
